A study of Mus musculus with 92 samples.

Results

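Villus RNA was compared between mice that had lost both copies of Eif4g2 and mice that had lost 1 copy, at the time labelled day 9, after tamoxifen. The comparison used 10 of the 92 libraries of the series, chosen by their labels as intestinal villi of the Rosa26-CreER mice. The 5 homozygous libraries carried Eif4g2(flox/flox) with Rosa26(CreER), and the 5 heterozygous libraries carried Eif4g2(flox/+) with Rosa26(CreER). Both groups received tamoxifen, so the controls also had the recombinase, the drug and a deletion of 1 copy, and no library had 2 intact copies. CreER is a recombinase that enters the nucleus when tamoxifen binds it, and Rosa26 is a locus active in nearly all cell types. The deletion was therefore not limited to the epithelium, and lymphocytes or stromal cells of the villus could carry it too. The labels give each library its own animal number and give neither the age nor the sex of the mice.

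eIF4G2, also called DAP5, is a relative of the translation initiation scaffold eIF4G that lacks the binding site for the cap-binding protein eIF4E and supports initiation on a subset of messenger RNAs. The title of the series places its role in the translation of histone modifiers and in intestinal stem cells. Villi carry mainly enterocytes, short-lived cells that leave the crypt, digest at a brush border of microvilli, take up nutrients and process lipids, drugs and vitamin A. Goblet, enteroendocrine and tuft cells sit among them, and T cells known as intraepithelial lymphocytes lie between the epithelial cells.

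Eif4g2 itself was read in every library first. It had 288, 261, 256, 236 and 251 CPM in the heterozygous and 39.1, 43.5, 34.9, 35.9 and 45.5 CPM in the homozygous libraries, in the order of replicates 1 to 5, where CPM are counts scaled for library size and composition. Every homozygous library was below every heterozygous one, so no genotype label was contradicted. The log2 fold change, homozygous minus heterozygous throughout, was -2.70 ± 0.11 SE (edgeR adjusted p 9.13e-08). Reads that remain can come from undeleted cells or from parts of the transcript outside the deleted exons, which the counts do not separate.

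Totals ran from 23088691 to 34208033 counts per library. Calls were made in edgeR's quasi-likelihood test at adjusted p-values under 0.05, and 33.2% of the 13579 tested genes were called, 15.0% higher and 18.2% lower in homozygous villi. The groups did not overlap in CPM for 22.4% of tested genes, and the median log2 fold change of all tested genes was -0.005. The first principal component of the 500 most variable genes held 72.6% of their variance and separated the genotypes, with heterozygous libraries from -39.2 to -25.6 and homozygous libraries from 25.4 to 54.4, except homozygous replicate 5 at 5.55. Transcripts of the Y chromosome were read in all 5 heterozygous libraries and in homozygous replicates 1 and 2, and not in homozygous replicates 3 to 5. The latter 3 also belong to the second of 2 series of animal numbers, so among homozygous mice sex and number series cannot be told apart. Genes of the mitochondrial genome took 24.5% of counts in heterozygous replicate 3 and from 2.39% to 9.63% in the other libraries. Without the 3 libraries that lack Y-linked transcripts, 20.9% of tested genes were called, 9.53% higher and 11.4% lower. With Y-linked transcripts as a covariate 21.8% were, 9.72% higher and 12.1% lower. Both fits take the genotype effect from the 5 heterozygous libraries and homozygous replicates 1 and 2, so they are not separate checks. Within the first number series (2 against 2) 6.33% were called, 1.8% higher and 4.53% lower. Within the second (3 against 3) 13.5% were, 5.72% higher and 7.77% lower, and there genotype and Y-linked transcripts cannot be told apart. Epithelial identity was checked on a list of 12 epithelial genes, of which 6 were called higher and 1 lower, with a median of 0.34. The epithelial adhesion protein Epcam was at 1802, 2350, 2188, 2347 and 2076 CPM in heterozygous and 3529, 3070, 2971, 2856 and 3101 CPM in homozygous villi. Genes of the villus tip summed to between 11880 and 23320 CPM over the 10 libraries, and crypt stem and proliferation genes to between 80.45 and 152 CPM. Because these are bulk samples, fewer cells of a type and less RNA per cell cannot be told apart.

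**Figure D1:**
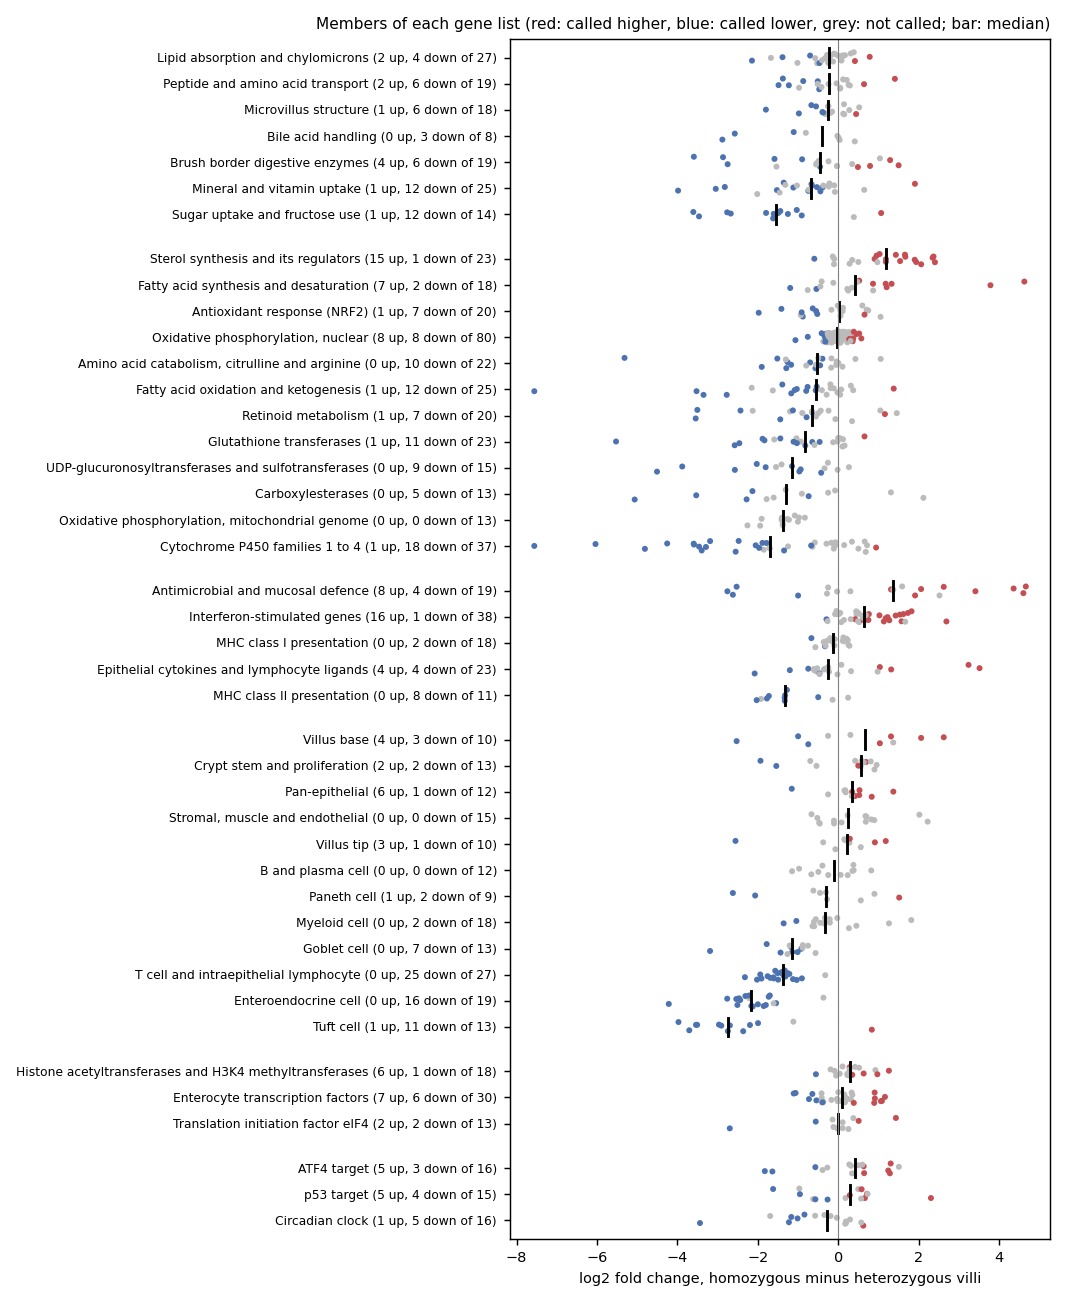
Each point is a gene of one of the functional or cell type lists, placed by its log2 fold change between homozygous and heterozygous villi (horizontal axis), with the list's median as a black bar and the list name, its called members and its tested members at the left. Sterol synthesis genes lie mostly to the right of 0 (median 1.19), and sugar, cytochrome P450, T cell, enteroendocrine and tuft cell genes mostly to the left.

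Digestive enzymes of the brush border moved in both directions. Of 19 tested members of the list, 6 fell and 4 rose, and the median was -0.45. Tmprss15 encodes enteropeptidase, which activates pancreatic trypsinogen at the duodenal brush border, and it had 364, 669, 437, 566 and 480.4 CPM in the heterozygous and 42.2, 22.1, 25.5, 84.3 and 34.5 CPM in the homozygous libraries. Its highest homozygous value was below its lowest heterozygous value, and the log2 fold change was -3.59 ± 0.37 SE (edgeR adjusted p 1.11e-04). Treh, the enzyme that splits trehalose, had 1144, 1740, 1136, 1674 and 1549 CPM in the heterozygous and 498, 184, 253, 617 and 860 CPM in the homozygous libraries, with the groups apart and homozygous replicate 5 nearest to the controls. Its log2 fold change was -1.59 ± 0.37 SE (edgeR adjusted p 0.00891). Xpnpep2, the membrane-bound aminopeptidase P, fell by 2.87 and the metalloprotease subunit Mep1a by 2.75 on the log2 scale (edgeR adjusted p 0.00177 and 0.00619). Anpep, aminopeptidase N, went the other way, with 7379, 8300, 5187, 8740 and 6235 CPM in the heterozygous and 14430, 8452, 13040, 15740 and 10380 CPM in the homozygous libraries. Its groups overlapped, with homozygous replicate 2 inside the heterozygous range, and the log2 fold change was 0.79 ± 0.21 SE (edgeR adjusted p 0.0126). Sucrase-isomaltase, Sis, named after its value was seen, was at 0.35 and not called (edgeR adjusted p 0.391).

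Of 18 tested genes that shape the microvillus, 6 fell and 1 rose, with a median of -0.25. The called share, 38.9%, was near the 33.2% of all tested genes. Espn, an actin-bundling protein of microvilli, had 328, 375, 355, 352 and 363 CPM in the heterozygous and 229, 180.5, 162, 162 and 165 CPM in the homozygous libraries. The groups were apart with homozygous replicate 1 nearest to the controls, and the log2 fold change was -0.98 ± 0.11 SE (edgeR adjusted p 1.39e-04). Pdzk1, a scaffold that holds transporters at the apical membrane, fell by 1.80 on the log2 scale (edgeR adjusted p 0.00361).

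Most genes of sugar handling fell. Of 14 tested, 12 fell and 1 rose, the groups did not overlap for 12, and the median was -1.55. The exception was Slc5a1, the sodium-glucose transporter SGLT1 that takes up glucose and galactose from the lumen, with 3697, 4959, 3298, 4928 and 4317 CPM in the heterozygous and 8159, 9774, 9740, 9648 and 7099 CPM in the homozygous libraries. All homozygous values were above all heterozygous values, and the log2 fold change was 1.07 ± 0.16 SE (edgeR adjusted p 6.87e-04). The gluconeogenic enzyme Fbp1, fructose-1,6-bisphosphatase, had 94.8, 114, 78.8, 104 and 191 CPM in the heterozygous and 5.69, 5.79, 7.54, 11.7 and 17.1 CPM in the homozygous libraries. No value overlapped, and the log2 fold change was -3.61 ± 0.37 SE (edgeR adjusted p 1.20e-04). Pck1, which makes phosphoenolpyruvate for gluconeogenesis, had 166, 274, 110.3, 102 and 227 CPM in the heterozygous and 15.2, 0.139, 9.46, 9.15 and 45.5 CPM in the homozygous libraries. Homozygous replicate 2 was close to 0, replicate 5 was the highest of its group, and the log2 fold change was -3.46 ± 0.92 SE (edgeR adjusted p 0.0170). G6pc, the glucose-6-phosphatase that releases free glucose, fell by 2.76 on the log2 scale (edgeR adjusted p 4.63e-04). Named after their values were seen, the fructose transporter Slc2a5 was at -1.80, fructokinase Khk at -1.61 and the basolateral transporter Slc2a2 at -1.25 (edgeR adjusted p 1.79e-04, 2.09e-05 and 0.00248). Slc2a1, a glucose transporter of most cells, was at 0.39 and was the member not called (edgeR adjusted p 0.464).

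**Figure D2:**
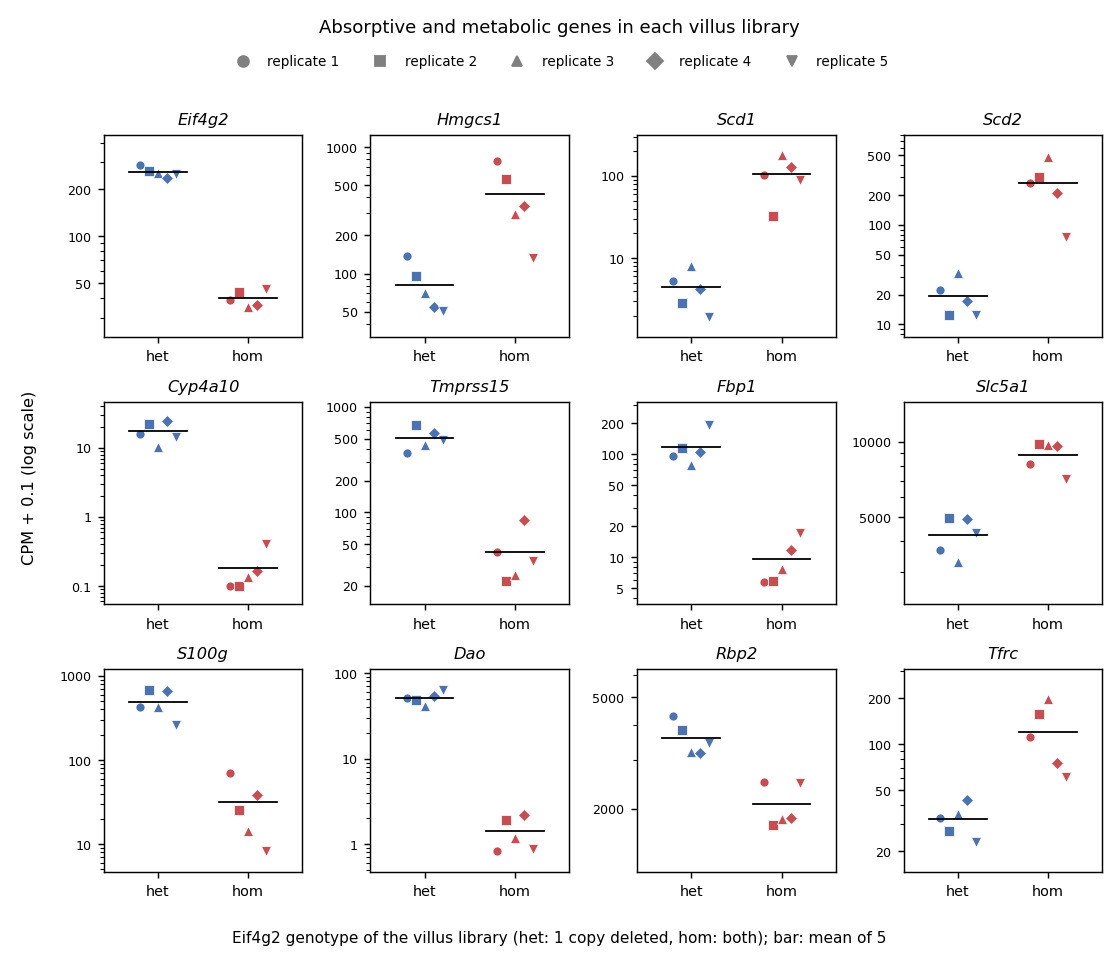
Each panel gives the level of a gene in the 5 heterozygous (blue) and 5 homozygous (red) villus libraries, as CPM plus 0.1 on a log axis, with the mean of 5 as a bar and the marker shape giving the replicate number. Eif4g2, Cyp4a10, Tmprss15, Fbp1, S100g, Dao and Rbp2 are lower and Scd1, Scd2, Slc5a1 and Tfrc higher in homozygous libraries, with no overlap in any of these 11 panels, and Hmgcs1 is higher with homozygous replicate 5 inside the heterozygous range.

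Among 19 transporters of peptides and amino acids, 6 fell and 2 rose, with a median of -0.24. The called share was 42.1%, beside 33.2% of all tested genes. Slc16a10, which exports aromatic amino acids, and Slc7a8, a subunit of a basolateral exchanger of neutral amino acids, fell by 1.23 and 1.38 on the log2 scale (edgeR adjusted p 0.00411 and 0.00412). Slc1a1, the apical glutamate transporter, rose by 1.41 on that scale (edgeR adjusted p 0.0110). Its heterozygous values were 5.56, 4.81, 6.50, 8.62 and 2.89 CPM and its homozygous values 8.37, 18.8, 21.8, 18.4 and 8.06 CPM, which overlapped for homozygous replicates 1 and 5.

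Lipid absorption moved little as a list. Of 27 tested genes, 4 fell and 2 rose, fewer than the share over all genes, and the median was -0.24. Plin2, which coats lipid droplets, had 74.3, 80.8, 44.1, 50.1 and 66.9 CPM in the heterozygous and 22, 25.2, 19, 19.6 and 35.1 CPM in the homozygous libraries. The groups were apart, and the log2 fold change was -1.39 ± 0.21 SE (edgeR adjusted p 7.46e-04). Apob, the core protein of chylomicrons, had 3754, 6838, 6096, 7388 and 8667 CPM in the heterozygous and 6507, 8763, 12220, 17150 and 11690 CPM in the homozygous libraries, with overlap. Its log2 fold change of 0.78 ± 0.27 SE passed narrowly (edgeR adjusted p 0.0462), and the adjusted p was above 0.05, at most 0.102, when any single library other than heterozygous replicate 5 or homozygous replicates 1 and 2 was left out. Npc1l1, the cholesterol importer, was at -0.70 ± 0.23 SE (edgeR adjusted p 0.0348), and the call was lost without any of heterozygous replicates 2, 4 and 5 or homozygous replicates 2, 3 and 4, at most 0.0913. Of 8 tested genes of bile acid handling, 37.5% were called, near the 33.2% of all tested genes, with 0 that rose and 3 that fell. Nr1h4, the bile acid receptor FXR, was one of them, with 30.4, 19.3, 30.3, 33.4 and 30.9 CPM in the heterozygous and 11.1, 20.4, 16.1, 12.9 and 6.51 CPM in the homozygous libraries. The lowest heterozygous library, replicate 2, lay within the homozygous range, and the log2 fold change was -1.11 ± 0.26 SE (edgeR adjusted p 0.00908).

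Mineral and vitamin uptake fell more often than it rose. Of 25 tested genes, 12 were lower and 1 higher, and the median was -0.67. S100g, calbindin-D9k, which carries calcium through the enterocyte, had 431, 684, 429.5, 669 and 263 CPM in the heterozygous and 70.2, 25.6, 14.4, 38.1 and 8.11 CPM in the homozygous libraries. No values overlapped, homozygous replicate 5 was lowest, and the log2 fold change was -3.98 ± 0.58 SE (edgeR adjusted p 9.83e-04). Slc30a2, a vesicular zinc transporter, had 82.3, 128, 82.2, 146 and 137 CPM in the heterozygous and 6.32, 3.29, 10.5, 27 and 22.4 CPM in the homozygous libraries. It fell by 3.05 on the log2 scale with no overlap (edgeR adjusted p 0.00256), and Slc23a1, the vitamin C transporter, fell by 2.82 (edgeR adjusted p 0.0125). Tfrc, the transferrin receptor through which cells take iron from blood, was the member that rose, with 33, 27.1, 34.7, 43.1 and 22.7 CPM in the heterozygous and 112, 157, 198, 75.6 and 61.1 CPM in the homozygous libraries. Every homozygous value was above every heterozygous one, and the log2 fold change was 1.91 ± 0.32 SE (edgeR adjusted p 0.00158). The number of lower members was 3 and 6 within the first and second number series, 7 of 25 in the libraries with Y-linked transcripts alone and 4 of 25 with these transcripts as a covariate.

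Sterol synthesis rose as a group. The pathway builds cholesterol from acetyl-CoA, and its genes are classical targets of the transcription factor SREBP2, which is released when membranes hold little cholesterol. Of 23 tested genes, 15 rose and 1 fell, with a median of 1.19. The groups did not overlap for 5, a share near the 22.4% of all tested genes. Hmgcs1, a synthase early in the pathway, had 139, 94.9, 69.9, 54.2 and 50.3 CPM in the heterozygous and 779, 559.7, 294, 344 and 134 CPM in the homozygous libraries. Homozygous replicate 5 lay just below heterozygous replicate 1, so the groups overlapped, and the log2 fold change was 2.37 ± 0.47 SE (edgeR adjusted p 0.00419). Sqle, squalene epoxidase, rose by 2.41 ± 0.48 SE (edgeR adjusted p 0.00428), also with homozygous replicate 5 inside the heterozygous range. Homozygous replicate 5 had the lowest median over the list in its group, 0.149 against 0.959 to 1.89 in the other 4, as log2 ratio to the heterozygous mean.

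Promoter sequences are shown for 3 of the sterol genes that rose, because one motif was frequent in this list. In the 300 bases around the start site given by RefSeq (250 before and 50 after), on both strands, CCAAT, the core letters bound by the factor NF-Y, matched in 15 of the 17 list promoters in the table (88.2%). It matched in 38.4% of the promoters of tested genes and 37.8% of all 27025 promoters. By call, a match was present in 11 of the 11 sterol promoters of genes called higher, in that of the 1 gene called lower, Ebp, and in 3 of the 5 of genes not called. The sterol response element, written TCACNCCAC, matched in 1 of the 17, Hmgcs1, against 1.08% of tested genes. The windows below read 5′ to 3′ along the gene's strand in build GRCm38.p6, and capitals mark CCAAT, its reverse complement, or in Hmgcs1 also the sterol response element. Hmgcs1 is from chr13:119690151-119690250, plus strand, Msmo1 from chr8:64733629-64733748, minus strand and Mvd from chr8:122443433-122443502, minus strand.
Hmgcs1: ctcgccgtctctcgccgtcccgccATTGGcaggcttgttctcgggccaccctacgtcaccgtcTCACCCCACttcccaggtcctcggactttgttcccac
Msmo1: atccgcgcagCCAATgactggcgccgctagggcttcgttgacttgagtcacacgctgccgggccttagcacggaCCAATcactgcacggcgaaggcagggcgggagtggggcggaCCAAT
Mvd: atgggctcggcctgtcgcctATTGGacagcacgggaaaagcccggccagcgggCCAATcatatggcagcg
Msmo1, a sterol oxidase, and Mvd, a decarboxylase of mevalonate diphosphate, rose by 1.66 and 1.90 on the log2 scale (edgeR adjusted p 0.00483 and 0.0133), and were chosen for their matches after their values were seen. A match is a run of letters and not a measured binding site.

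Fatty acid synthesis rose in part, with 7 of 18 tested genes higher, 2 lower and a median of 0.41. Scd1 and Scd2, desaturases that make monounsaturated fatty acids, led it. Scd2 had 21.9, 12.5, 32.7, 17.2 and 12.4 CPM in the heterozygous and 265, 306, 479, 210 and 75.7 CPM in the homozygous libraries, with the groups apart and a log2 fold change of 3.79 ± 0.49 SE (edgeR adjusted p 4.57e-04). Scd1 had 5.10, 2.75, 7.85, 4.05 and 1.83 CPM in the heterozygous and 103, 32.6, 179, 129 and 88.7 CPM in the homozygous libraries. Its lowest homozygous value, in replicate 2, was still above its highest heterozygous value. Fasn, fatty acid synthase, and Elovl5, an elongase of polyunsaturated fatty acids, rose by 1.2 and 1.33 (edgeR adjusted p 0.00158 and 1.97e-05).

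Fatty acid oxidation and ketogenesis fell more often than it rose. Of 25 tested genes, 12 were lower and 1 higher, with a median of -0.56. Cyp4a10, which hydroxylates fatty acids and is a classical target of the lipid receptor PPARα, had 15.7, 21.8, 10.1, 24.8 and 14.4 CPM in the heterozygous and 0, 0, 0.0330, 0.0671 and 0.303 CPM in the homozygous libraries. It was at or near 0 in every homozygous library, and its fitted log2 fold change of -7.56 depends on how such values are handled (edgeR adjusted p 2.11e-05). Acaa1b, a peroxisomal thiolase, had 84.4, 92.5, 47.9, 79.5 and 83.8 CPM in the heterozygous and 3.57, 3.36, 5.21, 6.61 and 14.8 CPM in the homozygous libraries, and fell by 3.53 on the log2 scale (edgeR adjusted p 3.00e-04). Both have close paralogs among which reads could be split, so their levels are uncertain. Angptl4, an inhibitor of lipoprotein lipase, fell by 2.77 (edgeR adjusted p 0.00123). Acadl, the long-chain acyl-CoA dehydrogenase of mitochondria, was the member that rose, with 224, 144, 77.6, 122 and 124 CPM in the heterozygous and 305, 415, 414, 297 and 368 CPM in the homozygous libraries, no overlap and a log2 fold change of 1.38 ± 0.24 SE (edgeR adjusted p 0.00161).

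Amino acid catabolism with citrulline and arginine synthesis held 10 lower and 0 higher genes of 22 tested, with a median of -0.53. Dao, which oxidises D-amino acids, had 51.7, 48.6, 41.2, 54 and 63.5 CPM in the heterozygous and 0.727, 1.84, 1.09, 2.11 and 0.773 CPM in the homozygous libraries. All homozygous values were far below the lowest heterozygous value, and the log2 fold change was -5.32 ± 0.30 SE (edgeR adjusted p 1.99e-06). Glud1, glutamate dehydrogenase, and Otc, which makes citrulline in enterocyte mitochondria, fell by 1.52 and 1.29 on the log2 scale (edgeR adjusted p 0.00202 and 1.47e-04). Nuclear genes of oxidative phosphorylation stayed near the centre, with 8 higher and 8 lower of 80 tested and a median of -0.04. The 13 protein-coding genes of the mitochondrial genome had a median of -1.38, with none called in edgeR, 5 at an unadjusted p under 0.05, all lower, and 1 called by DESeq2. All genes of the mitochondrial genome together took 5.03% ± 1.93 (SD, n = 5) in homozygous and 9.75% ± 8.73 (SD, n = 5) in heterozygous villi, and the exact permutation test, two-sided, gave p = 0.294. The difference of -4.73 percentage points was -1.05 without heterozygous replicate 3.

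Vitamin A genes fell in part, with 7 of 20 tested lower, 1 higher and a median of -0.65. The called share was 40.0%, beside 33.2% of all tested genes. Lrat, which esterifies retinol for storage or export, had 32.9, 39.5, 23.4, 27.1 and 32.3 CPM in the heterozygous and 4.08, 0.693, 1.35, 2.21 and 5.21 CPM in the homozygous libraries. It fell by 3.51 ± 0.46 SE on the log2 scale with no overlap (edgeR adjusted p 5.02e-04). Rbp2, the retinol-binding protein of the enterocyte, had 4298, 3841, 3201, 3171 and 3449 CPM in the heterozygous and 2487, 1747, 1840, 1860 and 2473 CPM in the homozygous libraries. The groups were apart, and the log2 fold change was -0.79 ± 0.15 SE (edgeR adjusted p 0.00267). Isx, a transcription factor that represses carotenoid uptake and cleavage, rose by 1.16 (edgeR adjusted p 1.74e-05), with 76.6, 70.9, 67.4, 80.0 and 78.2 CPM in heterozygous and 169, 182, 167, 175 and 141 CPM in homozygous libraries.

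More genes that modify drugs and foreign compounds fell than rose. Among 37 tested cytochrome P450 genes of families 1 to 4, 18 fell and 1 rose, with a median of -1.71. Among UDP-glucuronosyltransferases and sulfotransferases, 9 of 15 fell and none rose, with a median of -1.15. Glutathione transferases had 11 lower and 1 higher of 23, with a median of -0.82, and carboxylesterases 5 lower and none higher of 13, with a median of -1.31. These are gene families with close copies, so single members are uncertain. Cyp2c68 had 145, 186, 120, 193 and 162 CPM in the heterozygous and 14.3, 6.07, 7.08, 22.9 and 31.8 CPM in the homozygous libraries, without overlap, with a log2 fold change of -3.29 ± 0.45 SE (edgeR adjusted p 6.44e-04). Cyp1a1, a target of the aryl hydrocarbon receptor, had 363, 309, 64.3, 135 and 131 CPM in the heterozygous and 20.3, 1.77, 12.2, 51.6 and 9.30 CPM in the homozygous libraries. Both groups varied widely without overlap, and the log2 fold change was -3.40 ± 0.82 SE (edgeR adjusted p 0.0114). Gstt1 and Gstm7 fell by 2.58 and 2.46, Ugt2b5 by 3.88 and Ces2g by 2.28 on the log2 scale (edgeR adjusted p 3.01e-04, 9.25e-07, 0.00594 and 9.60e-04). Of 20 antioxidant genes of the NRF2 response, 7 fell and 1 rose around a median of 0.02. The called share of this list was 40.0%, beside 33.2% of all tested genes. Nqo1, a quinone reductase, fell by 1.98 and Prdx1, a peroxiredoxin, by 0.88 (edgeR adjusted p 8.23e-05 and 1.56e-04).

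Promoters of 3 Cyp2c genes that fell are shown because they share a run of letters. CAAAGTCCA, a core bound by the nuclear receptor HNF4A, searched on both strands of the same 300 bases, matched in 5 of 32 cytochrome P450 promoters (15.6%) against 0.573% of promoters of tested genes and 0.496% of all. By call, a match was present in 3 of the 16 promoters of genes called lower and in 2 of the 15 of genes not called, both Cyp3a. The promoter of the 1 gene called higher had none. The 3 shown are close paralogs, and their matches are not independent. Capitals mark the match, read 5′ to 3′ along the gene's strand in GRCm38.p6. Cyp2c65 is from chr19:39060866-39060945, plus strand, Cyp2c67 from chr19:39649103-39649182, minus strand and Cyp2c68 from chr19:39741132-39741211, minus strand.
Cyp2c65: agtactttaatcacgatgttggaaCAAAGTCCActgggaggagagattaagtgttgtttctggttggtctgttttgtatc
Cyp2c67: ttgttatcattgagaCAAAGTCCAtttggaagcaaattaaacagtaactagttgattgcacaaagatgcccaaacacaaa
Cyp2c68: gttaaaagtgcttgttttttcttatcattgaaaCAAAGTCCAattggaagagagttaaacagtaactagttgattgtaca
The full direct repeat 1 element, bound by nuclear receptor pairs, was in none of the promoters of the 6 lists searched, and in 13 of all promoters. Hnf4a itself was higher, with 741, 927, 742, 747 and 779 CPM in the heterozygous and 1500, 1836, 1545, 1513 and 922 CPM in the homozygous libraries. Homozygous replicate 5 lay just below the highest heterozygous library, and the log2 fold change was 0.89 ± 0.17 SE (edgeR adjusted p 0.00233).

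Immune genes did not move as one. Antigen presentation by MHC class II fell, while more genes of the interferon response and of mucosal defence rose than fell. Of 11 tested class II genes, 8 fell and none rose, with a median of -1.33. H2-Aa, the alpha chain of a class II molecule that enterocytes and myeloid cells can display, had 1330, 763, 1574, 1916 and 1718 CPM in the heterozygous and 653, 366, 268, 384 and 117 CPM in the homozygous libraries. Homozygous replicate 5 was the lowest of all, the groups were apart, and the log2 fold change was -2.03 ± 0.40 SE (edgeR adjusted p 0.00399). H2-Ab1, the beta chain, and Cd74, the invariant chain, fell by 1.77 and 1.28 (edgeR adjusted p 0.00229 and 0.0118). Of 18 myeloid cell markers tested, 2 fell and none rose, and the summed level of the list was 37.2 to 237 CPM in heterozygous and 72.9 to 207 CPM in homozygous villi. Their part in the class II result was not tested. The lower class II genes numbered 5 in the libraries with Y-linked transcripts and 3 with these transcripts as a covariate. They numbered 7 within the second number series, where genotype and Y-linked transcripts cannot be told apart. Within the first, edgeR called none, and 4 were at an unadjusted p under 0.05, 1 of them higher. Class I presentation showed 2 lower and none higher of 18, with a median of -0.12. H2-T3, which encodes the ligand TL of CD8αα on intraepithelial lymphocytes, was one of them, at 295, 366, 251, 374 and 335 CPM in heterozygous and 242, 179, 175, 205 and 219 CPM in homozygous libraries (log2 fold change -0.67 ± 0.14 SE, edgeR adjusted p 0.00365).

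Interferon-stimulated genes, which cells switch on when interferons bind, held 16 higher and 1 lower of 38 tested, with a median of 0.65. Isg15, a ubiquitin-like modifier, had 57.6, 39, 42.5, 22.8 and 24.3 CPM in the heterozygous and 97.9, 187, 151, 75 and 44.3 CPM in the homozygous libraries. Homozygous replicates 2 and 3 were highest and replicate 5 lay within the heterozygous range, and the log2 fold change was 1.57 ± 0.40 SE (edgeR adjusted p 0.0134). Oas2, a sensor of double-stranded RNA, had 5.16, 2.81, 4.19, 1.79 and 1.96 CPM in the heterozygous and 17.3, 31.4, 44.3, 6.94 and 3.42 CPM in the homozygous libraries, with the same 2 libraries on top. It rose by 2.69 ± 0.67 SE (edgeR adjusted p 0.0129), and Bst2, which tethers viruses to the membrane, by 1.73 (edgeR adjusted p 0.00395). Over the list, the median log2 ratio to the heterozygous mean was 0.612, 1.31, 1.01, 0.216 and -0.267 in homozygous replicates 1 to 5. The count of higher members was 9 without heterozygous replicate 4 or 5, 10 without homozygous replicate 3 and 21 without homozygous replicate 5. It was 5 within the first and 1 within the second number series, with medians of 0.89 and 0.59.

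Mucosal defence split between genes. Of 19 tested, 8 rose and 4 fell, with a median of 1.37. Duox2, an oxidase that makes hydrogen peroxide at the epithelial surface, had 48.4, 13.8, 83.1, 47.5 and 9.77 CPM in the heterozygous and 183, 1687, 1532, 756 and 4.08 CPM in the homozygous libraries. Homozygous replicates 1 to 4 were above every heterozygous library, with replicates 2 to 4 highest, while replicate 5 was the lowest of all 10. Its log2 fold change was 4.36 ± 1.25 SE (edgeR adjusted p 0.0239). Nos2, the inducible nitric oxide synthase, had 16.5, 5.43, 26, 8.74 and 4.72 CPM in the heterozygous and 26.7, 775, 251, 503 and 0.717 CPM in the homozygous libraries, with the same library at the bottom and a log2 fold change of 4.67 ± 1.37 SE (edgeR adjusted p 0.0263). Reg3b, a bactericidal lectin, had 4580, 1616, 2062, 2553 and 1229 CPM in the heterozygous and 6906, 21890, 11490, 8752 and 1205 CPM in the homozygous libraries, again with homozygous replicate 5 lowest, and a log2 fold change of 2.06 ± 0.64 SE (edgeR adjusted p 0.0307). The calls of Duox2 and Nos2 were lost without any of heterozygous replicates 2, 4 and 5 or homozygous replicate 2 (adjusted p at most 0.0573 and 0.0637). That of Reg3b was lost without any of heterozygous replicates 2 to 5 or homozygous replicates 2 and 3 (at most 0.0749). Reg1, a lectin of the same family, was lower in every homozygous library, with 1627, 1785, 1222, 2143 and 1291 CPM in the heterozygous and 248, 433, 241, 321 and 156 CPM in the homozygous libraries. No values overlapped, and the log2 fold change was -2.53 ± 0.26 SE (edgeR adjusted p 8.37e-05). Reg4 and Itln1, lectins of enteroendocrine and of goblet and Paneth cells, fell by 2.76 and 2.62 (edgeR adjusted p 0.0146 and 0.00440). Reg and Itln genes have close paralogs, so their levels are uncertain.

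**Figure D3:**
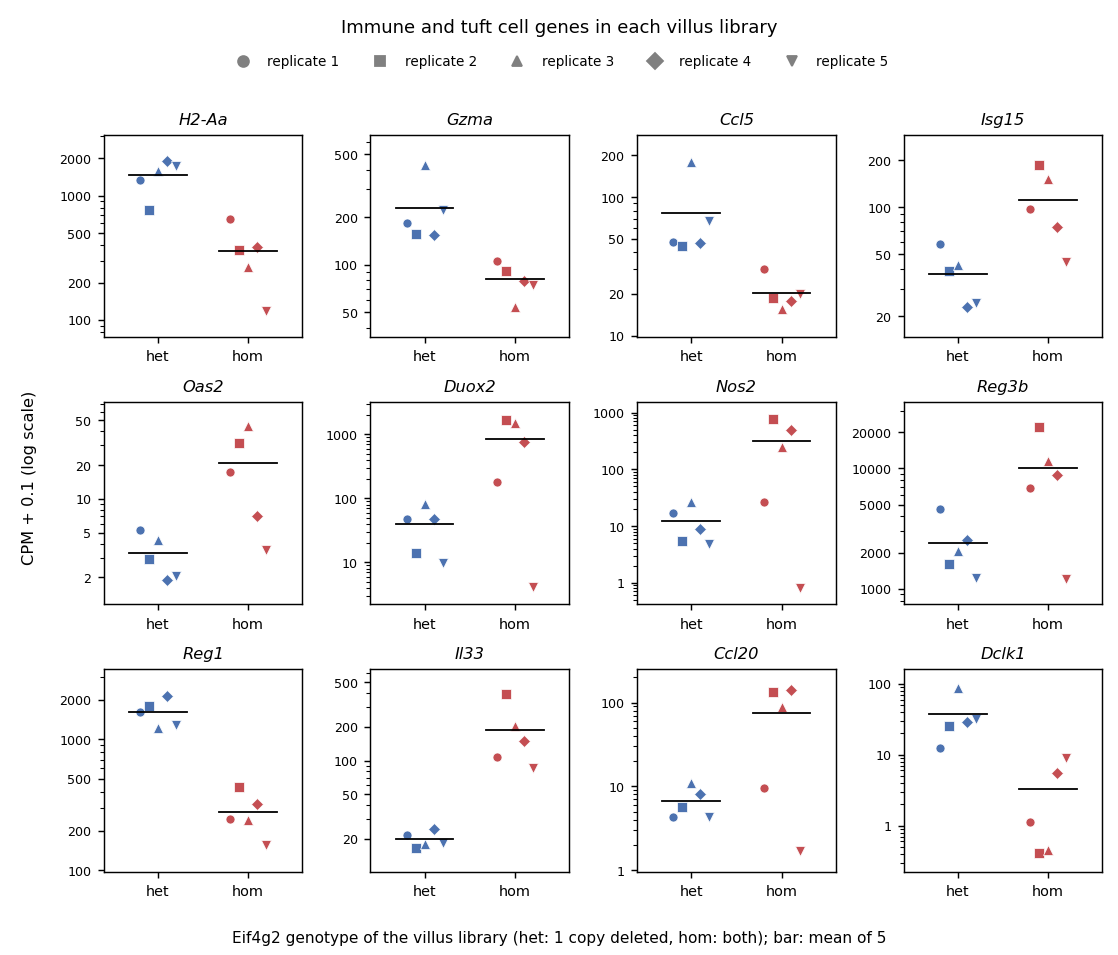
Each panel gives the level of an immune or tuft cell gene in the 5 heterozygous (blue) and 5 homozygous (red) villus libraries, as CPM plus 0.1 on a log axis, with the mean of 5 as a bar and the marker shape giving the replicate number. Homozygous replicate 5 (downward triangle) lies lowest of its group for H2-Aa, Isg15, Oas2, Duox2, Nos2, Reg3b, Reg1, Il33 and Ccl20. Heterozygous replicate 3 (upward triangle) is the highest of its group for Gzma, Ccl5, Duox2, Nos2, Ccl20 and Dclk1.

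Of 23 tested genes for signals from epithelium to immune cells, 4 were higher and 4 lower, or 34.8%, near the 33.2% of all tested genes, with a median of -0.26. Il33, an alarmin held in the nucleus and released on damage, had 21.8, 16.6, 17.9, 24.6 and 18.3 CPM in the heterozygous and 108, 395, 202, 148 and 86.6 CPM in the homozygous libraries. Even homozygous replicate 5 was above every heterozygous library, and the log2 fold change was 3.24 ± 0.40 SE (edgeR adjusted p 3.38e-04). Ccl20, which attracts CCR6-bearing lymphocytes and dendritic cells, had 4.24, 5.56, 11, 8.07 and 4.21 CPM in the heterozygous and 9.45, 134, 89.1, 142 and 1.57 CPM in the homozygous libraries. Homozygous replicates 2 to 4 were far above all other libraries and replicate 5 was the lowest of all. Its log2 fold change was 3.52 ± 1.00 SE (edgeR adjusted p 0.0235, at most 0.0579 without any of heterozygous replicates 1, 2 and 5 or homozygous replicate 2). Cxcl16, a ligand of CXCR6 on T cells, rose by 1.32 and the chemokine Ccl6 fell by 2.08 (edgeR adjusted p 9.54e-04 and 0.0114).

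Markers of T cells and intraepithelial lymphocytes were lower almost throughout. Of 27 tested, 25 fell and none rose, the groups did not overlap for 20, and the median was -1.37. Gzma, a granzyme of cytotoxic lymphocytes, had 184, 157, 428, 155 and 223 CPM in the heterozygous and 106, 91.1, 53.9, 78.4 and 74.5 CPM in the homozygous libraries. The groups were apart, heterozygous replicate 3 was the highest, and the log2 fold change was -1.51 ± 0.30 SE (edgeR adjusted p 0.00353). Cd3g, a subunit of the T cell receptor complex, had 12, 14.2, 30.9, 11.1 and 17.6 CPM in the heterozygous and 6.13, 5.58, 4.51, 6.24 and 6.43 CPM in the homozygous libraries, again without overlap, and fell by 1.57 (edgeR adjusted p 0.00141). The kinase Lck and the chemokine Ccl5 fell by 1.76 and 1.91 (edgeR adjusted p 0.00402 and 0.00652). The summed level of the list was 479 to 1350 CPM in heterozygous and 190 to 349 CPM in homozygous villi. Without heterozygous replicate 3, 24 genes were lower with a median of -0.99. In the libraries with Y-linked transcripts alone, 5 against 2, the median was -1.24 and 4 of 28 genes were called lower, and with these transcripts as a covariate 8 were. Within the first number series 1 of 27 was lower, with a median of -0.81, and within the second, where genotype and Y-linked transcripts cannot be told apart, 23 were, with a median of -1.75. None of 12 B and plasma cell markers and none of 15 stromal, muscle and endothelial markers was called in edgeR. At an unadjusted p under 0.05 there were 1 and 2 of them, and DESeq2 called 1 of each list.

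Secretory and tuft cell genes fell. Of 19 tested enteroendocrine genes 16 were lower, of 13 tuft cell genes 11 were lower and 1 higher, and of 13 goblet cell genes 7 were lower, with medians of -2.16, -2.75 and -1.14. Cck, the hormone cholecystokinin, had 79.4, 92.6, 114, 69.9 and 87.5 CPM in the heterozygous and 8.15, 2.67, 5.54, 20.0 and 45.1 CPM in the homozygous libraries. Homozygous replicates 4 and 5 were nearest to the controls, and the log2 fold change was -2.44 ± 0.66 SE (edgeR adjusted p 0.0190). Dclk1, a tuft cell kinase, had 12.3, 25.1, 86.8, 29.2 and 32 CPM in the heterozygous and 1.01, 0.312, 0.362, 5.50 and 8.86 CPM in the homozygous libraries, with no overlap and a log2 fold change of -3.51 ± 0.92 SE (edgeR adjusted p 0.0167). The hormone Gip, the tuft cell gene Sh2d6 and the goblet cell gene Spink4 fell by 2.47, 3.97 and 1.78 (edgeR adjusted p 0.0163, 0.00487 and 0.00108). Lower enteroendocrine genes numbered 15 of 18 within the first number series and 0 of 20 in edgeR within the second, where 13 were at an unadjusted p under 0.05 and the median was -1.67. Lower goblet cell genes numbered 12 in libraries with Y-linked transcripts alone and 3 within either number series.

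**Figure D4:**
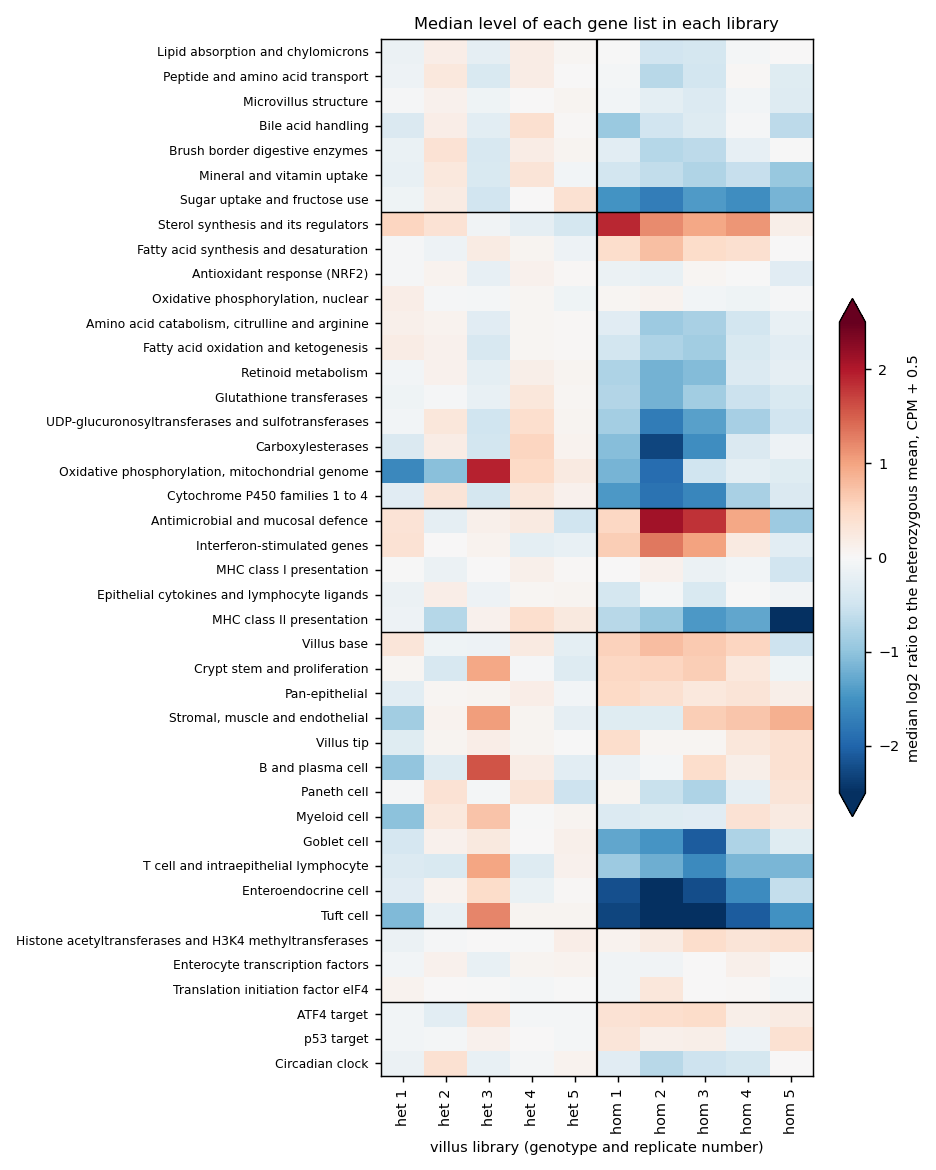
Rows are gene lists and columns the 10 villus libraries. Colour gives the median over list members of the log2 ratio to the heterozygous mean (red above, blue below). Homozygous replicate 5 is the palest of its group for sterol, enteroendocrine and tuft cell lists and blue, unlike the rest of its group, for interferon and antimicrobial lists, and heterozygous replicate 3 stands out for mitochondrial genome, T cell, B cell, stromal and tuft cell lists.

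Outside these lists, several genes that met the naming rule had large changes. The rule took the largest rises and falls only from genes without overlap, so lack of overlap there was set by the choice. Wwc2, of the KIBRA family of Hippo pathway scaffolds, had 0.922, 1.31, 1.93, 0.954 and 1.19 CPM in the heterozygous and 19.1, 31.2, 42.5, 28.5 and 19.4 CPM in the homozygous libraries, and rose by 4.5 ± 0.29 SE (edgeR adjusted p 3.75e-06). Slc25a4, the mitochondrial ADP/ATP carrier of muscle and heart, had 2.54, 2.46, 6.36, 2.62 and 3.10 CPM in the heterozygous and 40.0, 45.1, 57.3, 36.8 and 30.0 CPM in the homozygous libraries, and rose by 3.63 (edgeR adjusted p 2.11e-05). Guca2a encodes guanylin, which drives chloride secretion through guanylate cyclase C, and had 17.3, 33.5, 18.4, 25.9 and 19.3 CPM in the heterozygous and 329.7, 159, 372, 271 and 602 CPM in the homozygous libraries. Homozygous replicate 5 was the highest here, and the log2 fold change was 3.92 ± 0.35 SE (edgeR adjusted p 4.80e-05). Among falls, Acta1, the actin of skeletal muscle, had 40.2, 31.4, 34.1, 21.2 and 39.9 CPM in the heterozygous and 0.790, 0.797, 0.922, 0.671 and 1.13 CPM in the homozygous libraries, a log2 fold change of -5.26 ± 0.22 SE (edgeR adjusted p 9.36e-08). The flavin monooxygenase Fmo1 and the aldo-keto reductase Akr1c14 fell by 5.24 and 6.68 (edgeR adjusted p 1.26e-07 and 1.99e-06), the latter with close paralogs. The haemoglobin gene Hba-a1 had 6.45, 45.6, 51.2, 44.1 and 4.12 CPM in the heterozygous and 1.74, 0.797, 1.15, 1.27 and 0.221 CPM in the homozygous libraries. Heterozygous replicates 2 to 4 were several-fold above replicates 1 and 5, and the log2 fold change was -4.87 ± 0.84 SE (edgeR adjusted p 0.00238).

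Regulators of chromatin and transcription were called for 38.9% of the histone enzyme list and 43.3% of the enterocyte factor list, beside 33.2% of all tested genes. Of 18 histone acetyltransferase and H3K4 methyltransferase genes, 6 rose and 1 fell, with a median of 0.28. Ep300, which encodes p300, had 72, 89.1, 77.1, 83.7 and 97.3 CPM in the heterozygous and 149, 223, 233, 223 and 175 CPM in the homozygous libraries, and Crebbp, which encodes CBP, had 37.8, 43, 46.2, 47.2 and 51.2 CPM in the heterozygous and 79.1, 84.2, 96, 91.6 and 91.3 CPM in the homozygous libraries. For both, every homozygous library was above every heterozygous one, with log2 fold changes of 1.26 ± 0.14 SE and 0.97 ± 0.10 SE (edgeR adjusted p 1.09e-04 and 6.00e-05). These are messenger RNA levels, and the files used here hold no protein values. Of 30 enterocyte transcription factors, 7 rose and 6 fell, with a median of 0.10. Klf4, a factor of differentiated villus cells, and Tcf7l2, which acts in Wnt signalling, rose by 0.91 and 1.09 (edgeR adjusted p 2.05e-04 and 0.00838). Among 13 genes of the eIF4 group, Eif4g2 and Eif4h fell and Eif4ebp1 and Eif4a2 rose. Eif4h, a cofactor of the helicase eIF4A, was at -0.56, Eif4a2, a helicase paralog, at 0.51 and Eif4ebp1, an inhibitor of eIF4E, at 1.43 (edgeR adjusted p 8.03e-04, 0.00602 and 4.14e-04).

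Crypt libraries from the same mice, 4 homozygous and 5 heterozygous, gave values beside those of villi. In crypts 20.2% of 15846 tested genes were called, 8.63% higher and 11.6% lower. The effect of genotype differed between the tissues, as an interaction, for 11.5% of 16495 genes in edgeR, 6.68% more positive and 4.86% more negative in villi. With the animal as a block it was 4.71%, with 3.09% and 1.62%. The 1904 genes became 1252 without villus heterozygous replicate 5. Genes named as different below passed in both fits. Guca2a was at 0.04 in crypts against 3.92 in villi (edgeR adjusted p of the difference 4.39e-05, or 0.00302 with the block). Tfrc was at -0.30 against 1.91 (0.00212 and 0.0335). Qsox1, a disulfide-forming enzyme, went in opposite directions, at -1.18 in crypts and 0.74 in villi, as did Abhd5, the coactivator of triglyceride lipase, at 0.62 and -0.64 (edgeR adjusted p of the difference 4.39e-05 and 3.06e-04). Ap1s3, an adaptor subunit for vesicle transport, was at 0.17 in crypts and -2.32 in villi, where its homozygous libraries lay between 7.97 and 9.36 CPM and its heterozygous ones between 37.5 and 46.8 CPM. The T cell list had no called gene of 28 in crypts in edgeR (2, both higher, had p-values under 0.05 before adjustment), and a median of 0.35. Its interaction was called for 6 genes without and for none with the animal block, where 15 were at an unadjusted p under 0.05. The enteroendocrine median was -1.92 in crypts and -2.16 in villi, with 1 gene of 22 called as different with the block. The sterol median was 0.61 in crypts, with 2 of 23 genes called as different with the block.

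Villi of Vil1-CreER mice, in which the villin promoter limits CreER to the epithelium, were tamoxifen-treated and labelled 3 months, and gave 6 homozygous and 4 heterozygous libraries. There 42.5% of 15107 tested genes were called, 20.9% higher and 21.6% lower. The genotype effect differed between the Rosa26-CreER and Vil1-CreER villi for 3.79% of 15915 genes in edgeR's interaction test, 2.18% more positive and 1.61% more negative in Rosa26-CreER villi. These were 347 and 256 genes, or 242 and 290 with DESeq2's size factors. Y-linked transcripts were read in 2 of the 10 Vil1-CreER villus libraries, heterozygous replicate 1 and homozygous replicate 4, against 7 of the 10 Rosa26-CreER ones. Driver, labelled time, count table and the makeup by sex differ together and cannot be told apart. Lamb3, the beta chain of laminin-332 in the basement membrane, had 97.7, 154, 85.4, 113 and 124 CPM in the heterozygous and 12.4, 11.3, 16, 12.9 and 16.2 CPM in the homozygous libraries. It fell by 3.06 on the log2 scale here and was at 0.89 in Vil1-CreER villi (edgeR adjusted p of the difference 8.76e-09). Lama5, a laminin alpha chain, was at -0.53 here and not called (edgeR adjusted p 0.223, 0.0268 without homozygous replicate 3), and at 4.32 in Vil1-CreER villi (difference 5.91e-05). S100g was at -3.98 here and -0.38 there, and Acta1 at -5.26 and -0.94 (edgeR adjusted p of the difference 0.0216 and 0.0109). Of 38 interferon-stimulated genes, 1 was higher and 11 were lower in Vil1-CreER villi, with a median of -0.61. The difference between the experiments was called for 9 of them, all more positive in Rosa26-CreER villi. Isg15 was at -0.60 and Oas2 at -0.27 there (edgeR adjusted p of the difference 0.0461 and 0.0404). T cell markers were lower for 27 of 28 genes with a median of -2.18, class II genes for 6 of 12 with -1.81, and sterol genes higher for 20 of 23 with 1.67. No gene of the T cell or class II lists, and 1 sterol gene, was called as different between the experiments in edgeR (6 and 1 of the first lists had p-values under 0.05 before adjustment). The number of genes called in this interaction was 252 and 335 without Vil1-CreER heterozygous replicates 1 and 4, 367 and 368 without Rosa26-CreER heterozygous replicates 5 and 4, and otherwise at most 902, without Vil1-CreER homozygous replicate 5.

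**Figure D5:**
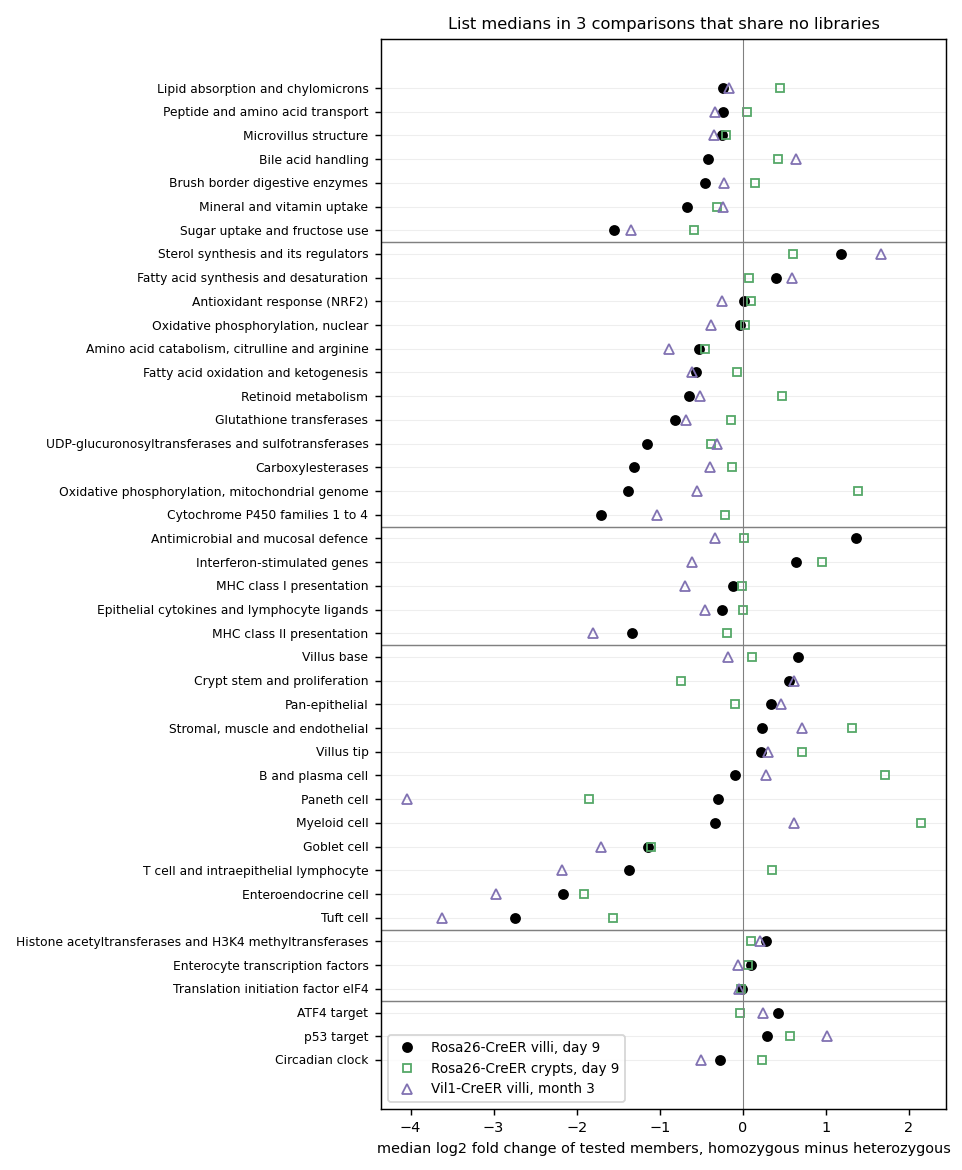
For each gene list, the median log2 fold change of its tested members, homozygous minus heterozygous, is given for Rosa26-CreER villi (filled circles), crypts of the same mice (open squares) and Vil1-CreER villi (open triangles). Interferon-stimulated genes have a median of 0.65 in Rosa26-CreER villi, 0.95 in crypts and -0.61 in Vil1-CreER villi, and T cell genes -1.37, 0.35 and -2.18.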

How the data were processed

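The data are read counts of poly(A)-selected, dUTP strand-marked RNA libraries, 1 per animal and tissue. The authors deposited raw counts per gene, whole numbers, for 54532 genes. HISAT2 2.0.5 and the builds GRCm38 and mm10 are named in the submitters' processing notes. The counting program, its strand setting and the annotation release are not given in the sources used here, so genes that overlap on opposite strands, and paralogs, are uncertain. Totals of 23088691 to 34208033 counts per library limit precision mainly for genes near 0.

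Groups came from the labels. Genes were filtered with filterByExpr by group, scaled by TMM and tested with edgeR 4.0.16 (R 4.3.3), with robust quasi-likelihood F-tests and Benjamini-Hochberg adjustment over all tested genes. Interactions used all 4 groups concerned. SE was calculated from the test, as the absolute log2 fold change divided by the square root of the F statistic. CPM are TMM-scaled over the 10 villus libraries. Lists are described by counts and medians without a test. List members and gene lists were chosen with earlier results of these data known. The text gives a selection of genes that met a naming rule: Eif4g2, the 10 largest rises and falls called without overlap, the 4 largest called members and the most abundant member of each list (mean log2 CPM of at least 3), and 5 genes per direction of each interaction. Exceptions are marked where named. A few genes that met the rule are not reported here, and the sterol list was shortened for this reason. Promoters are from RefSeq (GRCm38.p6). Litters and days are not given in the labels used here, and p-values measure only the spread between these samples. The crypt and villus libraries share animals per the labels, with correlations of residuals from 0.007 to 0.264. The labels do not say that replicate numbers pair genotypes, and the main fit used no pairing. Scripts were tested on simulated data. Alternatives were DESeq2 1.42.0, no filter, a replicate block, covariates, subsets and leaving out each library. Lists in subsets by Y-linked transcripts and number series were added after the data were seen.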

Additional observations from a re-analysis of the deposited data

Results flagged for a closer look

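The effect of the deletion differed between villi and crypts of the same mice for 26 of the 126 genes examined for the text, by an interaction term that edgeR called both without and with the animal as a block. Some of the 126 were named for a small p in this interaction, so their share is raised by choice. Over all 16495 tested genes the fit with the block called 4.71%. The differences are log2 fold changes in villi minus those in crypts, so a negative value is a lower villus than crypt effect. Apart from Cyp4a10, given last, the most negative differences were -3.77 for Acta1, -2.53 for Aldoc, -2.49 for Akr1c14, -2.49 for Lamb3, -2.46 for Fmo1 and -2.38 for Ap1s3. They were followed by -2.23 for Cpne2, -2.08 for Ces2g, -1.97 for Ptgr1, -1.79 for Fbp1, -1.72 for Abcc5 and -1.21 for Nqo1. The smallest negative differences were -1.15 for Abhd5, -0.75 for Prdx1 and -0.62 for Eif4g2. The most positive differences were 3.99 for Guca2a, 2.32 for Scd2, 2.31 for Tfrc, 2.25 for Nbl1, 2.03 for Qsox1 and 1.90 for Wwc2. They were followed by 1.76 for Slc25a4, 1.48 for Tspan8, 1.43 for Elovl5 and 1.33 for Eif4ebp1. Akr1c14 is near 0 in homozygous villi, so its difference depends on how low counts are handled. Cyp4a10, at -4.86, did not pass the expression filter in crypts and is near 0 in homozygous villi, so its value gives no measured difference between tissues.

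The effect differed between Rosa26-CreER and Vil1-CreER villi for 21 of the 126 genes, by an interaction term called in edgeR. Some of the 126 were also named for a small p in this interaction, which was called for 3.79% of all 15915 tested genes. Rosa26-CreER minus Vil1-CreER values were -4.81 for Lama5, -4.32 for Hba-a1, -4.28 for Acta1, -3.94 for Hbb-bs, -3.90 for Lamb3 and -3.54 for S100g. Further negative values were -2.71 for Abcc5, -2.64 for Angptl4, -2.47 for Mep1a, -2.33 for Akr1c14, -2.26 for Ces2g and -1.28 for Eif4g2. The smallest negative values were -1.26 for Aldoc, -1.05 for Nqo1 and -0.76 for Gstm7. Positive values were 3.00 for Oas2, 2.90 for Tmprss15, 2.57 for Slc30a2, 2.22 for Isg15, 2.22 for Pipox and 1.94 for Cpne2. Haemoglobin and actin genes among these have close paralogs. Driver, labelled time and the share of libraries with Y-linked transcripts (7 of 10 and 2 of 10) cannot be told apart.

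Single libraries stood apart within their group by Dixon's 95% criterion in 11 of 278 groups tested, 6 of them in heterozygous replicate 3. Chance alone gives about 1 in 20. Acaa1b was at 47.9 CPM in heterozygous replicate 3 and at 79.5 to 92.5 CPM in the other 4 libraries. Cox7a1 was at 46.7 CPM in heterozygous replicate 1 and at 29.3 to 30.6 CPM in the other 4 libraries. Cyp4a10 was at 0.303 CPM in homozygous replicate 5 and at 0 to 0.0671 CPM in the other 4 libraries. Hnf4a was at 927 CPM in heterozygous replicate 2 and at 741 to 779 CPM in the other 4 libraries. Mvd was at 9.55 CPM in homozygous replicate 5 and at 41.9 to 71 CPM in the other 4 libraries. Nr1h4 was at 19.3 CPM in heterozygous replicate 2 and at 30.3 to 33.4 CPM in the other 4 libraries. Pbld1 was at 9.78 CPM in heterozygous replicate 3 and at 16.7 to 20.7 CPM in the other 4 libraries. Pipox was at 19.9 CPM in heterozygous replicate 3 and at 27.8 to 28.8 CPM in the other 4 libraries. Slc25a4 was at 6.36 CPM in heterozygous replicate 3 and at 2.46 to 3.10 CPM in the other 4 libraries. Spink4 was at 75 CPM in heterozygous replicate 3 and at 38.1 to 44.6 CPM in the other 4 libraries. The median log2 ratio of the fatty acid oxidation list was -0.408 in heterozygous replicate 3, against 0.033 to 0.178 in the others.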

How the results depend on the processing

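The alternatives reuse all or part of the same libraries, so agreement in direction was largely set in advance. Every called gene that was tested under an alternative kept its direction, except 2 of 4494 in the first series of animal numbers (2 against 2 libraries). The 4504 calls became 874 in that series, 1847 in the second (3 against 3), 2967 with Y-linked transcripts as a covariate, 3005 in libraries with these transcripts alone and 1775 with a 2-fold limit added. Fewer libraries enter the fits by series, and in the second genotype and Y-linked transcripts cannot be told apart. Leaving out 1 library gave 3519 to 4872 calls. Other fits gave 4059 to 5163, with 4241 under the replicate block. The labels do not say whether replicate numbers pair the genotypes. Correlations of residuals were -0.164 to 0.254 between libraries of the same number and -0.272 to 0.228 between others, which does not settle it. The replicate block ended 7 of the calls among the 126 genes examined for the text. The calls of 12 genes were lost without the expression filter, 19 with the Y covariate, 54 in the first and 42 in the second series, and 12 when some single library was left out. None of these genes reversed.

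The tissue interaction fell from 1904 to 1221 genes without the filter and to 777 with the animal as replicate block, and ran from 1252 to 2317 when a villus library was left out. The driver interaction fell from 603 to 345 without the filter, and ran from 252 to 902. Vil1-CreER villi gave 5163 to 6675 calls, and 5845 with the replicate block. The mitochondrial difference ran from -6.48 to -1.05 percentage points.

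With the Y covariate, lower members were 4 for minerals and vitamins, 3 for class II and 8 for T cells. In libraries with Y-linked transcripts alone, the same genotype comparison, they were 7, 5 and 4, and 12 for goblet cells. In the second series they were 2 for brush border enzymes, 6 for minerals and vitamins, 3 for goblet, 0 for enteroendocrine and 8 for cytochrome P450, and 1 interferon-stimulated gene was higher. In the first number series they were 2 for brush border enzymes, 3 for minerals and vitamins, 0 for class II, 1 for T cells, 3 for goblet cells, 7 for tuft cells and 9 for cytochrome P450, and 5 interferon-stimulated genes were higher. The cause was not tested. Leaving out 1 library gave 4 to 7 lower brush border enzymes, 11 to 12 sugar genes, 8 to 13 mineral and vitamin genes, 10 to 14 fatty acid oxidation genes, 7 to 8 class II genes, 24 T cell genes in each case, 5 to 10 goblet, 11 to 18 enteroendocrine and 11 to 12 tuft cell genes and 13 to 22 cytochrome P450 genes. It gave 11 to 16 higher sterol genes and 9 to 21 interferon-stimulated genes. Depth limits mainly genes near 0 in 1 group, such as Cyp4a10 and Akr1c14.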

Other observations

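Targets of p53, a regulator that responds to DNA damage and other stress, were mixed in Rosa26-CreER villi, with 5 higher and 4 lower of 15 tested and a median log2 fold change of 0.29. In Vil1-CreER villi 11 of 16 were higher and 1 lower, with a median of 1.02, and in Rosa26-CreER crypts 7 were higher. The difference between the Rosa26-CreER and Vil1-CreER villi was called in edgeR for 10 of 16, all more negative in Rosa26-CreER villi, against 3.79% of all tested genes in either direction. Targets of ATF4, a factor of the amino acid and stress response, had 5 higher and 3 lower of 16 in Rosa26-CreER villi, with a median of 0.42.

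Paneth cell genes, whose cells lie at the crypt base, had 1 higher and 2 lower of 9 in villi and 11 lower of 12 in crypts. Crypt stem and proliferation genes had 2 higher and 2 lower of 13 in villi and 8 lower of 14 in crypts. Genes of the villus tip had 3 higher and 1 lower of 10, and those of the villus base 4 higher and 3 lower of 10. Circadian clock genes had 1 higher and 5 lower of 16, with a median of -0.27. The called shares of the Paneth, crypt stem and clock lists in villi, 33.3%, 30.8% and 37.5%, are near the 33.2% of all tested genes. The time of day at which tissue was taken is not given in the labels used here.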
